A study of Mus musculus with 20 samples.

Results

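Potassium channel genes were taken as all gene symbols that begin with Kcn, and the expression tables held 95 of them among 22556 genes. The mice were C57BL/6, and the cells were serotonin (5-HT) neurons carrying the fluorescent protein EYFP, sorted by flow cytometry. The series has 20 samples in 8 groups, of which 18 are RNA libraries in 6 groups of 3. Wild-type neurons at E11.5 (E stands for embryonic day), at E15.5 and at postnatal days 1 to 3 (PN) were amplified with the Clontech SMARTer kit. Neurons that lack the transcription factor Pet-1 (Pet-1-/-, gene Fev) were sampled at E15.5 with that kit, and E15.5 wild-type and Pet-1-/- neurons were also sampled with the NuGEN Ovation kit. The last pair of samples is 1 chromatin immunoprecipitation of Myc-tagged Pet-1 from embryonic hindbrain and 1 input. For that chromatin the labels conflict: one field gives wild type at E12.5 to E14.5, while the protocol gives Pet-1-/-; ePet-mycPet-1; ePet-EYFP tissue and ends at E15.5. The labels do not say which transgene marks the sorted cells of the RNA libraries, nor whether replicates came from separate animals, so p-values measure the spread between these samples only, which may be technical.

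Potassium channels let K+ cross the cell membrane, and so help to set the resting potential, the shape of the action potential and the rate of firing. Voltage-gated alpha subunits form the pore that opens on depolarisation, and auxiliary subunits such as the KChIP proteins (Kcnip genes) change its trafficking and gating. Two-pore-domain channels carry leak current, G protein-gated inward rectifiers open below inhibitory receptors, and calcium-activated channels couple calcium entry to the pause after a spike. In 5-HT neurons the somatodendritic autoreceptor Htr1a acts through G protein-gated inward rectifiers, and a large calcium-activated afterhyperpolarisation paces their slow firing.

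Of the 95 genes, 50 reached 1 FPKM (mapped fragments scaled by transcript length and library size) in at least 1 stage mean or knockout group, and these are described here. Among them, 47 did so in a stage mean, and Kcna4, Kcnj12 and Kcnrg did so only in a knockout table. The other 45 stayed lower, among them Kcna1, Kcna2, Kcnj10 and Kcnq1, and 7 of these were listed at 0 in all 9 stage libraries. The number of genes with a mean of at least 1 FPKM was 21 at E11.5, 30 at E15.5 and 45 at PN. By library, 16, 23 and 21 genes reached 1 FPKM at E11.5, 28, 27 and 26 at E15.5, and 40, 41 and 43 at PN, so the stages did not overlap in this count. Over all genes the counts were 9614, 9984 and 10211 at E11.5, 10059, 10591 and 10314 at E15.5, and 10843, 11035 and 11280 at PN. There too every PN library lay above the rest, while E11.5 and E15.5 overlapped. Kcnmb4, a beta subunit of the large-conductance calcium-activated channel, had the highest mean over the 9 libraries at 18.7 FPKM, while the means of Kcne1l, Kcnip3 and Kcnip1 were 10.97, 10.6 and 10.3 FPKM.

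**Figure D1:**
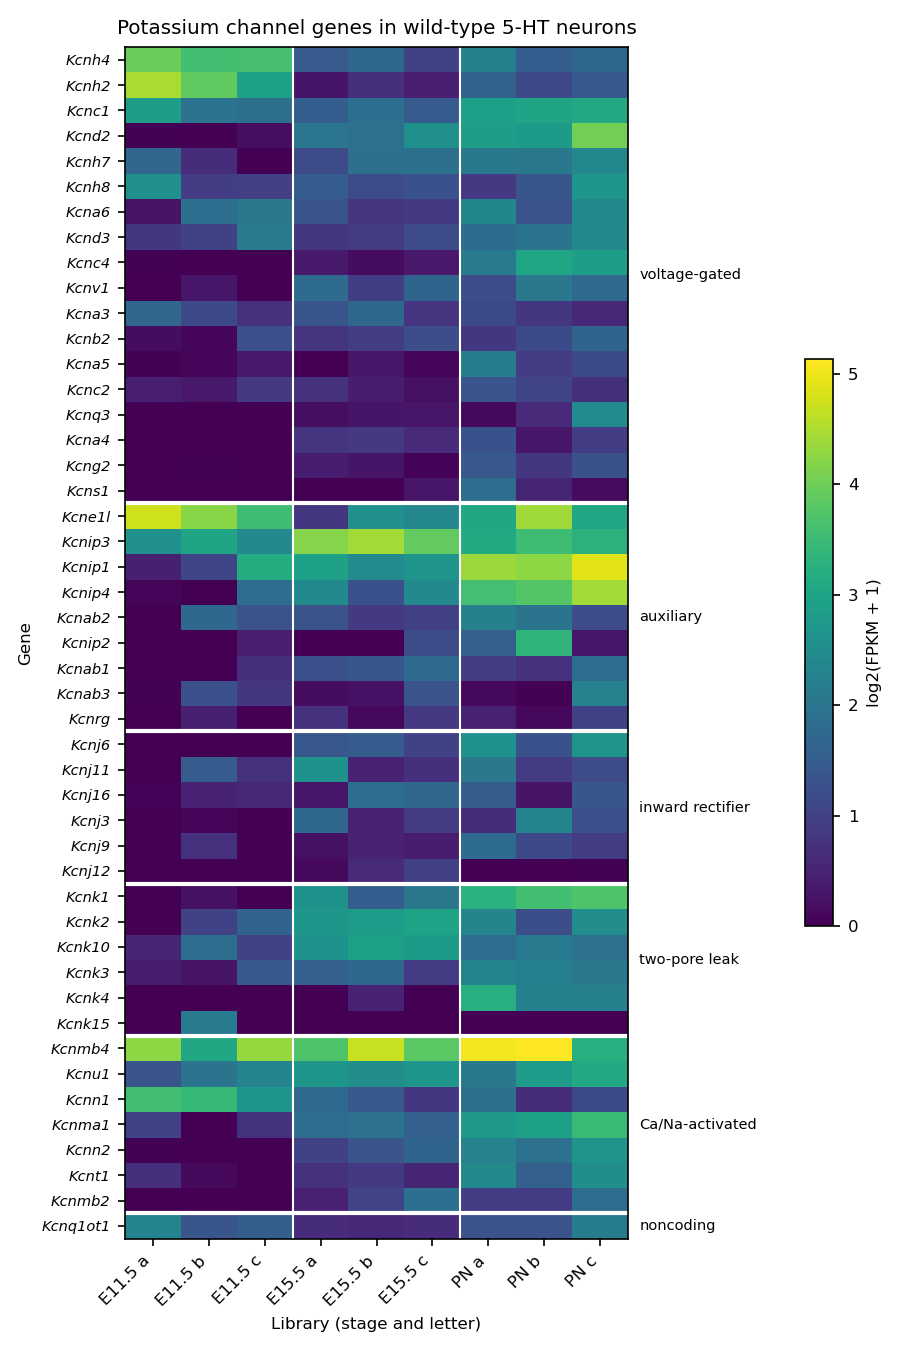
Level of 47 of the 50 described genes, as log2(FPKM + 1) by colour, in each of the 9 wild-type libraries (columns, with the letter of the library after the stage) and ordered within families by their mean. Kcnh2, Kcnh4 and Kcnn1 are brightest at E11.5, while most inward rectifier and two-pore leak genes are dark there.

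Depth is unknown, because the files give no read numbers, and libraries are lettered a to c in column order. All 9 serotonin neuron markers examined reached 1 FPKM in mean at each stage, and their summed level was 1076 to 1477 FPKM at E11.5, 499 to 599 at E15.5 and 490 to 743 at PN. Lists of markers of other cells did not all move alike. The sum of 9 astrocyte genes was 1.62 to 6.47 FPKM at E11.5, 50.9 to 147 at E15.5 and 120 to 257 at PN. The sum of 10 microglia and blood markers was 3.97 to 8.16 FPKM at E11.5 and 20.2 to 64.4 at E15.5, and at PN it was 105 and 123 in libraries a and c but 1052 in library b. For 7 oligodendrocyte lineage genes the sum was 6.10 to 12.6, 14.6 to 72.0 and 13.0 to 16.1 FPKM at the 3 stages in order, and for 6 neural progenitor genes 23.1 to 28.1, 8.96 to 15.6 and 14.7 to 25.8 FPKM. The sum of 6 glutamate or GABA neuron genes was 1.18 to 5.20, 1.56 to 4.00 and 5.61 to 16.2 FPKM, that of 6 dopamine, noradrenaline or acetylcholine neuron genes was 0.104 to 0.569, 3.46 to 8.24 and 4.18 to 68.1 FPKM, with PN library b again the highest, and vascular and meningeal genes summed to at most 2.69 FPKM in any library. Listed at 0 in every E11.5 library were S100b of the astrocyte list and Hbb-b1 of the microglia and blood list, whereas at E15.5 and PN no marker of either list was. The part of these cells in the stage differences was not tested, and results that rest on PN library b are given with and without it. In RNA from pooled cells, fewer cells that express a gene and less RNA per cell cannot be told apart.

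A Myc-Pet-1 peak was centred in the gene span, or within 5 kb before its start, for 17 of the 95 channel genes and 13 of the 50 described ones. The share was 21.2% of all matched genes and 34.0% of the 11638 matched genes that were tested in the stage series; neither channel count is above its background share. This is a single chromatin sample with no replicate, and long genes hold more peaks by length alone: the median span was 32.9 kb for the channel genes, 60.0 kb for those with a peak and 16.3 kb for all matched genes. The authors' score ran from 50.0 to 3133.01 over their 4934 peaks, with a median of 88.3. Kcnc1, a fast voltage-gated channel of the Kv3 family, had the strongest of the 20 channel peaks, with a score of 351.25 centred 1260 bases after the gene start. That score lay at percentile 93.6 of the list. Of the 14 peaks with a known distance, 8 were centred within 1 kb of the start, including those of Kcna3 at 121 bases after it, Kcnab2 at 107 bases before, Kcnd3 at 250 bases before and Kcnh2 at 381 bases before. Other described genes with a peak included Kcng2, Kcnj3, Kcnk1, Kcnmb4 and Kcnn2.

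Peaks overlapped an annotated start window of 4 described genes, and those windows are printed for that reason. Kcna3 and Kcnd3 encode voltage-gated pores, Kcnab2 an auxiliary subunit and Kcnmb4 the beta subunit named above. The overlapping peaks scored 128.83 for Kcna3, 55.89 for Kcnd3, 84.25 for Kcnab2 and 69.75 for Kcnmb4. Those scores lay at percentiles 72.4, 11.8, 46.2 and 30.4 of the list, so all but that of Kcna3 were below the median. Each printed sequence is the RefSeq window of 300 bases on GRCm38.p6, read 5′ to 3′ on the gene's strand. The ETS core GGAA and its complement TTCC are in capitals. The windows are chr3:107035912-107036211 on the plus strand for Kcna3, chr3:105451640-105451939 on the plus strand for Kcnd3, chr4:152477500-152477799 on the minus strand for Kcnab2, and chr10:116473474-116473773 on the minus strand for Kcnmb4.
Kcna3: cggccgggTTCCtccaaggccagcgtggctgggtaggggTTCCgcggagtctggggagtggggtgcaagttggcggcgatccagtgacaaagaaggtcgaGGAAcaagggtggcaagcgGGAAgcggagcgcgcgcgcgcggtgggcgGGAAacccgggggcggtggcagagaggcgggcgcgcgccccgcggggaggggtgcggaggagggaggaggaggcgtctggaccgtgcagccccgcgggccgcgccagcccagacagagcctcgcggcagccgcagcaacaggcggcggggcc
Kcnd3: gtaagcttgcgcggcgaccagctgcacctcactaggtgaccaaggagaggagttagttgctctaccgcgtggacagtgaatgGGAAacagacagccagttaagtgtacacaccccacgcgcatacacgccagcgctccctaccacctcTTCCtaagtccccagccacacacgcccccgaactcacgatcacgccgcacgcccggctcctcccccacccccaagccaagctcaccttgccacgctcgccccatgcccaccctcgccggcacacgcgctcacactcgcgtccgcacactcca
Kcnab2: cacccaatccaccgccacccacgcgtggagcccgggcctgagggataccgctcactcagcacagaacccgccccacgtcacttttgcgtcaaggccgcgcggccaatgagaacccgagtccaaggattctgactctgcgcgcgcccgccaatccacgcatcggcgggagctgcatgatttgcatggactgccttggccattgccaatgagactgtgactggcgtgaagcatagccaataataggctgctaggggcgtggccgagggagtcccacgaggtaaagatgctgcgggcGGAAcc
Kcnmb4: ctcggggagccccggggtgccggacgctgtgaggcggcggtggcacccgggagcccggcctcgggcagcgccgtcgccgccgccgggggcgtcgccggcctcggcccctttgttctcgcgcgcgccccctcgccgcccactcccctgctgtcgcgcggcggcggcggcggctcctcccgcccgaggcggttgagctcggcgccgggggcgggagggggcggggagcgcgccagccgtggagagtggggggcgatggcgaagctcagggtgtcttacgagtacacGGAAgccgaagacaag
The first 3 windows lay wholly inside a peak, and 223 bases of the Kcnmb4 window did. The core was found 5 times in Kcna3, 2 times in Kcnd3 and 1 time each in Kcnab2 and Kcnmb4, on either strand. It is short and common: 96.0% of 32851 mouse promoter windows of this length held it, with a median of 3 matches. Of 58 windows of 37 described channel genes, 54 held the core. The longer ETS sequence CCGGAAGT, or its complement ACTTCCGG, was in 3.89% of all windows and in 0 of those 58.

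The stage comparison asks how the channel set changes as 5-HT neurons mature. Log2(FPKM + 1) was compared with limma over all 11741 genes that had at least 1 FPKM in 3 or more libraries, and a gene passed when its p, adjusted by Benjamini-Hochberg over these genes, was under 0.05 and the difference was 1.5-fold or more. This covered 40 of the 95 channel genes. Kcnc4, Kcnk4 and Kcnt1 met the filter through PN libraries only, which favours a call of higher at PN. Kcnab1, Kcnd2, Kcnj3, Kcnj6, Kcnk1, Kcnmb2, Kcnn2 and Kcnv1 had no E11.5 library at 1 FPKM and met it through E15.5 and PN libraries. That favours a call of higher than E11.5, and the p-values of their rises from E11.5 are to be read with that limit. Between E11.5 and E15.5, 11 of the 40 rose and 6 fell; the background was 28.9% of all tested genes called, 17.4% higher, with 2046 genes higher and 1348 lower. Between E15.5 and PN, 8 rose and none of the 40 fell, against 20.2% called, 10.6% higher and 9.55% lower. Between E11.5 and PN, 15 rose and 3 fell, against 27.4% called, 17.4% higher, with 2038 genes higher and 1177 lower. Among genes that reached 1 FPKM in libraries of more than 1 stage, 5 of 37 channel genes were called higher from E15.5 to PN, against 9.50% of 11448 genes, and 12 of 37 from E11.5 to PN, against 16.3%. This subset still holds the genes with no E11.5 library at 1 FPKM that met the filter through E15.5 and PN. The median difference in log2(FPKM + 1) over the 40 genes was 0.46, 0.63 and 0.80 in the 3 comparisons, and over all tested genes 0.11, 0.01 and 0.08. With libraries scaled to a common upper quartile, the all-gene median of the first comparison moved from 0.11 to -0.02 and the channel genes split into 10 higher and 7 lower; the splits of the other comparisons stayed at 8 to 0 and 15 to 3. Stage groups did not overlap for 22, 21 and 21 of the 40 genes, against 42.3%, 42.2% and 40.3% of all tested genes. Over the 3 comparisons 26 genes passed at least once.

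**Figure D2:**
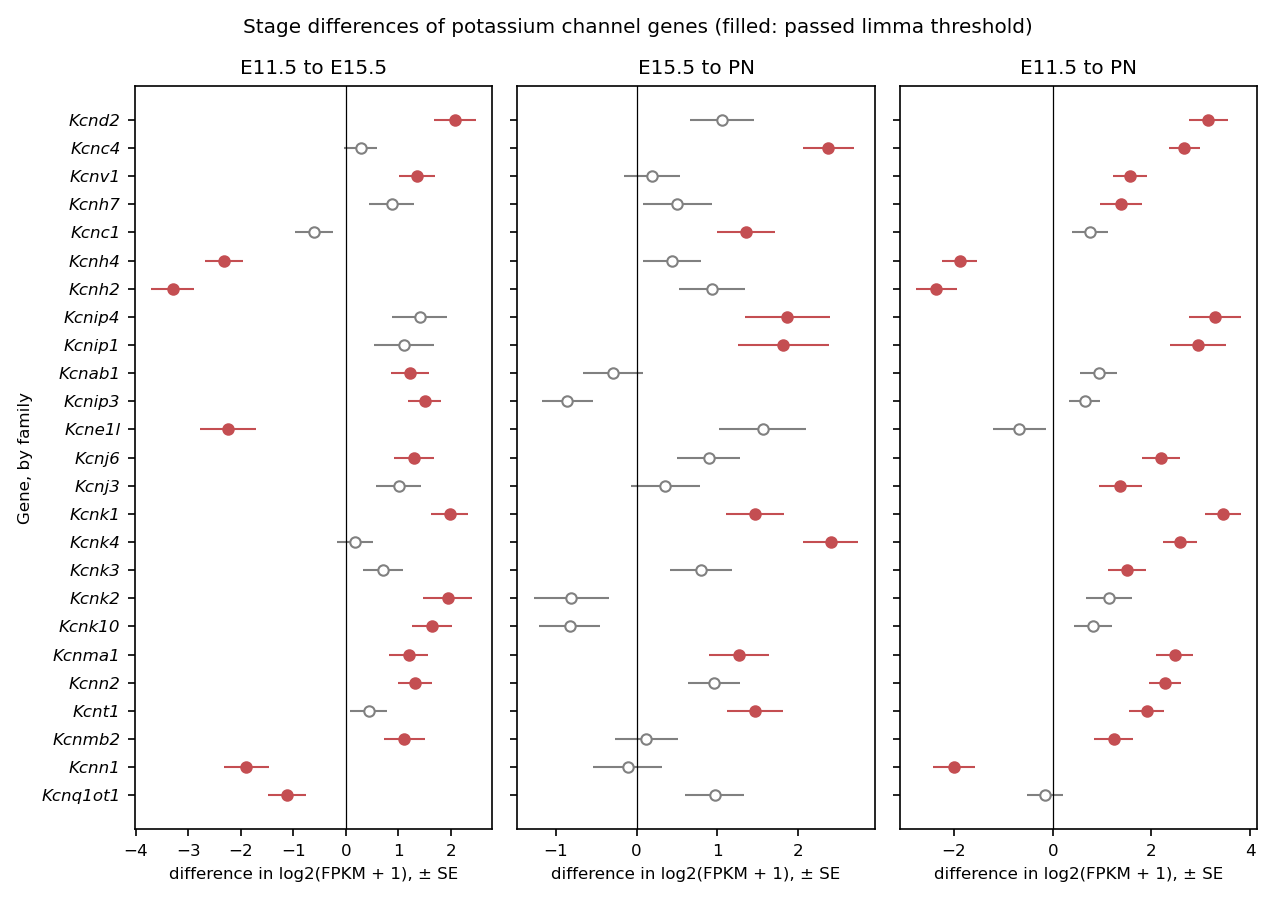
Difference in log2(FPKM + 1) with its standard error (bars) for 25 of the 26 channel genes that passed in at least 1 stage comparison, with 1 panel per comparison and 3 libraries per stage. Filled points passed the limma threshold; every filled point lies to the right of 0 from E15.5 to PN, while from E11.5 to E15.5 there are 11 filled to the right and 5 to the left.

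Among voltage-gated alpha subunits, 15 of 40 genes were tested. Of these, 2 were called higher and 3 lower between E11.5 and E15.5, and 2 rose from E15.5 to PN. Over the whole span 4 rose and 2 fell. For comparison, 17.4%, 10.6% and 17.4% of all 11741 tested genes were called higher, and 1348, 1121 and 1177 genes lower. The summed FPKM of the 40 genes was 72.5 at E11.5, 34.9 at E15.5 and 76.5 at PN, with E15.5 below the other stages in every library. The falls were led by Kcnh2, the ERG1 channel, whose current helps to repolarise the membrane and whose peak before the gene start is given above. Kcnh2 stood at 21.4, 13.7 and 6.66 FPKM in the E11.5 libraries, at 0.215, 0.620 and 0.351 at E15.5, and at 2.11, 1.20 and 1.74 at PN. No E11.5 library overlapped another stage, and the PN libraries all lay above those of E15.5. Its log2(FPKM + 1) differed by -3.30 ± 0.41 (SE; limma adjusted p = 0.000177) from E11.5 to E15.5, and by 0.94 ± 0.41 from E15.5 to PN, which did not pass (limma adjusted p = 0.126). Kcnh4, an ELK-type relative of Kcnh2, had 14.7, 10.9 and 11.2 FPKM at E11.5, 1.76, 2.33 and 0.981 at E15.5, and 3.75, 1.89 and 2.32 at PN. All E11.5 libraries were well above the rest, with a difference of -2.32 ± 0.36 in log2(FPKM + 1) to E15.5 (limma adjusted p = 0.000673).

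In contrast, Kcnd2 and Kcnv1 rose from levels near 0. Kcnd2, the Kv4.2 pore of the transient A-type current, was at 0.0154, 0.00915 and 0.142 FPKM at E11.5, at 3.01, 2.74 and 4.95 at E15.5, and at 6.27, 5.89 and 15.4 at PN, with no overlap between stages. The difference in log2(FPKM + 1) was 2.08 ± 0.40 to E15.5 (limma adjusted p = 0.00255) and 1.07 ± 0.40 from there to PN, which did not pass (limma adjusted p = 0.0776). Kcnv1, a silent subunit that modifies other pores, had 0, 0.247 and 0 FPKM at E11.5, 2.47, 0.944 and 2.15 at E15.5, and 1.32, 3.09 and 2.38 at PN; E11.5 lay below the other stages, which overlapped. Kcnh7, the ERG3 channel, passed over the whole span when all libraries were used: it had 2.24, 0.562 and 0 FPKM at E11.5, 1.28, 2.71 and 2.72 at E15.5, and 3.21, 3.14 and 4.17 at PN (difference 1.38 ± 0.43 in log2(FPKM + 1), limma adjusted p = 0.0307). That call was lost without E11.5 library b or c or any 1 PN library (limma adjusted p up to 0.109, and 0.0648 without PN library b).

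Of the Kv3 family genes, Kcnc1 and Kcnc4 had their highest levels at PN. Kv3 channels repolarise spikes quickly and allow brief action potentials. Kcnc4 was almost absent before birth, at 0.0188, 0 and 0.00714 FPKM at E11.5 and 0.296, 0.120 and 0.273 at E15.5, and reached 3.397, 7.14 and 6.28 FPKM at PN. All PN libraries stood far above the embryonic ones, with a difference from E15.5 of 2.38 ± 0.32 in log2(FPKM + 1). Kcnc4 entered the test through its PN libraries, where it is high, so this difference is given as a description with no p. Kcnc1, which carries the strongest Pet-1 peak of the set, had 6.26, 2.88 and 2.74 FPKM at E11.5, 1.90, 2.67 and 1.80 at E15.5, and 6.39, 6.95 and 7.53 at PN. The PN libraries were the highest, those of E15.5 the lowest, and the rise from E15.5 was 1.36 ± 0.36 (limma adjusted p = 0.0203). It was lost without E15.5 library a or c or any 1 PN library (limma adjusted p up to 0.0676).

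Of the 13 auxiliary subunit genes 8 were tested. By E15.5 2 had risen and 1 had fallen, 2 rose from E15.5 to PN, and 2 rose over the whole span. The share of all 11741 tested genes called higher was 17.4%, 10.6% and 17.4%, and 1348 genes were lower by E15.5. The summed FPKM of the auxiliary subunit genes was 30.0 at E11.5, 34.1 at E15.5 and 67.4 at PN. The KChIP genes of this family encode calcium-binding partners of Kv4 pores. Kcnip1 had 0.361, 1.10 and 8.06 FPKM at E11.5, 6.63, 4.54 and 5.25 at E15.5, and 19.4, 18.2 and 28.8 at PN. E11.5 library c exceeded the E15.5 libraries, but every PN library was higher still, with a difference from E15.5 of 1.82 ± 0.57 in log2(FPKM + 1) (limma adjusted p = 0.0404), a call lost without any 1 library of either stage (limma adjusted p up to 0.119). Kcnip4 had 0.0473, 0.0101 and 2.58 FPKM at E11.5, 4.44, 1.46 and 4.35 at E15.5, and 11.1, 12.51 and 20.4 at PN. The PN libraries again stood apart (1.87 ± 0.52, limma adjusted p = 0.0256), though the call was lost without E15.5 library b or any 1 PN library (limma adjusted p up to 0.173 over all alternatives). E11.5 library c was the highest of its stage for both genes.

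Kcnip3, also known as DREAM or calsenilin, followed another course. It had 5.08, 6.99 and 4.30 FPKM at E11.5, 17.4, 20.5 and 13.9 at E15.5, and 7.65, 10.6 and 8.83 at PN, with no overlap between any stages. The rise to E15.5 was 1.51 ± 0.32 in log2(FPKM + 1) (limma adjusted p = 0.00457), and the difference from there to PN was -0.86 ± 0.32 (limma adjusted p = 0.0768). Kcne1l, also called Kcne5, a small membrane subunit, had 25.97, 17.7 and 10.5 FPKM at E11.5, 0.765, 5.00 and 4.19 at E15.5, and 7.31, 20.2 and 7.07 at PN. Every E15.5 library was below every other library, PN library b was the highest of its stage, and the fall to E15.5 was -2.24 ± 0.54 (limma adjusted p = 0.00893). Kcnab1, a cytoplasmic beta subunit, rose to E15.5 from 0.0118, 0 and 0.618 FPKM to 1.38, 1.59 and 2.38, and had 0.896, 0.661 and 2.59 FPKM at PN. That rise was 1.22 ± 0.37 (limma adjusted p = 0.0262) and lost significance without E11.5 library a or b, or without E15.5 library b or c (limma adjusted p up to 0.0937).

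**Figure D3:**
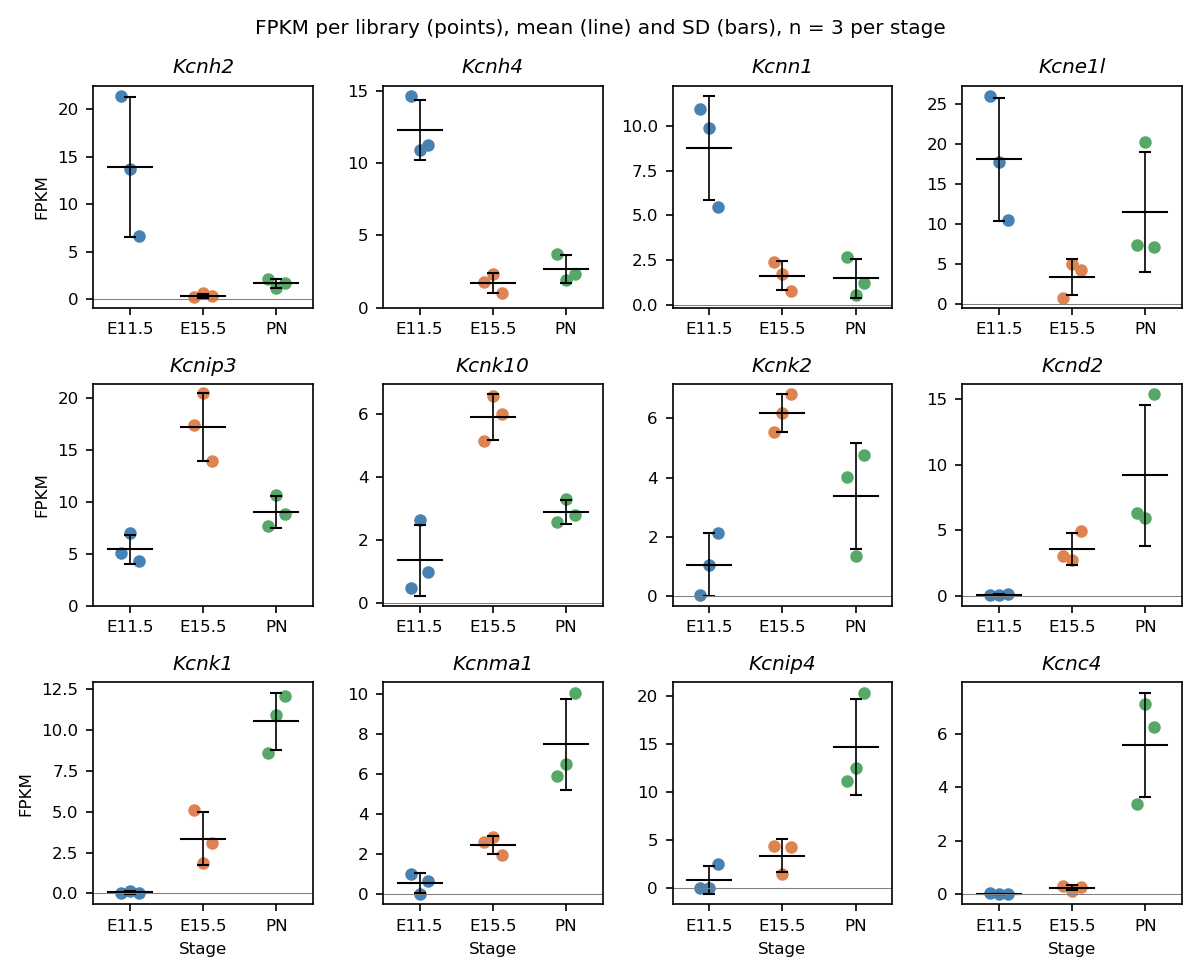
FPKM of 12 channel genes in each wild-type library (points), with the stage mean (line) and standard deviation (bars) of 3 libraries. The top row shows genes that fell after E11.5, the next begins with Kcnip3, Kcnk10 and Kcnk2, whose E15.5 libraries are the highest, and the last row shows genes highest at PN.

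Inward rectifiers were low throughout: 6 of 15 genes were described and 4 tested, with a summed level of 2.01 FPKM at E11.5, 8.31 at E15.5 and 11.7 at PN. Of these, 1 rose from E11.5 to E15.5, against 17.4% of all tested genes, and 0 passed from E15.5 to PN, against 20.2%. Over the whole span 2 rose, against 17.4%. Both were G protein-gated subunits. Kcnj6 (GIRK2) was listed at 0 in all E11.5 libraries, at 1.62, 1.81 and 1.03 FPKM at E15.5 and at 5.24, 1.45 and 5.29 at PN. It was therefore called between E11.5 and E15.5 (limma adjusted p = 0.0250) and between E11.5 and PN (limma adjusted p = 0.00120), while PN library b lay within the E15.5 range. The first of these calls was lost without E11.5 library b or E15.5 library a or b (limma adjusted p up to 0.0786). Kcnj3 (GIRK1) had 0, 0.0528 and 0 FPKM at E11.5, 2.28, 0.389 and 0.886 at E15.5, and 0.561, 3.89 and 1.37 at PN. It rose over the whole span (1.37 ± 0.43 in log2(FPKM + 1), limma adjusted p = 0.0329), with E15.5 and PN overlapping. The call was lost without E11.5 library a, b or c (limma adjusted p up to 0.0782 over all alternatives), and without E15.5 library a or PN library b or c the gene no longer met the filter on low values. Kcnj9 (GIRK3), not tested, had 0, 0.665 and 0 FPKM at E11.5, 0.166, 0.425 and 0.315 at E15.5, and 2.48, 1.20 and 0.874 at PN. Kcnj11, the pore of the ATP-sensitive channel, passed in no comparison.

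Of 14 genes of two-pore-domain leak channels 5 were tested; 3 were called higher from E11.5 to E15.5, 2 from E15.5 to PN and 3 over the whole span, and none of the 5 lower. Of all tested genes 17.4%, 10.6% and 17.4% were called higher in these comparisons, and Kcnk4 was tested through its PN libraries only. Their summed FPKM was 5.06 at E11.5, 18.2 at E15.5 and 27.4 at PN, and the libraries of the 3 stages did not overlap in it. Kcnk1 (TWIK-1) passed in all 3 comparisons. It had 0, 0.169 and 0 FPKM at E11.5, 5.09, 1.89 and 3.07 at E15.5, and 8.63, 10.9 and 12.1 at PN, with every stage apart from the others. The differences in log2(FPKM + 1) were 1.98 ± 0.36 (limma adjusted p = 0.00189) and then 1.46 ± 0.36 (limma adjusted p = 0.0144), the later of which was lost without E15.5 library b (limma adjusted p up to 0.0724 over all alternatives). Kcnk2 (TREK-1) and Kcnk10 (TREK-2), mechanically gated and lipid-gated relatives, were highest at E15.5. Kcnk2 had 0.0117, 1.02 and 2.12 FPKM at E11.5, 5.54, 6.18 and 6.82 at E15.5, and 4.03, 1.35 and 4.75 at PN. Kcnk10 had 0.472, 2.62 and 0.977 FPKM at E11.5, 5.13, 6.56 and 5.98 at E15.5, and 2.56, 3.29 and 2.79 at PN. For both, every E15.5 library was above all others; the rises from E11.5 were 1.95 ± 0.47 and 1.65 ± 0.38, and the differences to PN, -0.81 and -0.83, did not pass (limma adjusted p = 0.242 and 0.142). Kcnk4 (TRAAK) was listed at 0 in all E11.5 libraries and in E15.5 libraries a and c, with 0.423 FPKM in E15.5 library b, and had 8.46, 3.77 and 3.73 FPKM at PN. Kcnk3 (TASK-1), an acid-sensitive leak channel, had 0.331, 0.199 and 1.66 FPKM at E11.5, 1.99, 2.30 and 0.872 at E15.5, and 3.96, 3.67 and 3.16 at PN. Only the whole span passed for Kcnk3, at a difference of 1.5 ± 0.39 (limma adjusted p = 0.0116).

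All 7 described genes of the 12 calcium- and sodium-activated channels were tested. By E15.5 3 had risen and 1 had fallen, and 2 rose from E15.5 to PN. Over the whole span 4 rose and 1 fell. Across all 11741 tested genes 17.4%, 10.6% and 17.4% were called higher, and 1348, 1121 and 1177 genes lower. The small-conductance (SK) subunits crossed over. Kcnn1 (SK1) had 10.95, 9.86 and 5.45 FPKM at E11.5, 2.38, 1.70 and 0.776 at E15.5, and 2.69, 0.564 and 1.23 at PN. Kcnn2 (SK2) had 0.0210, 0 and 0 FPKM at E11.5, 1.00, 1.55 and 2.13 at E15.5, and 3.85, 2.81 and 5.31 at PN. Kcnn1 exceeded Kcnn2 in every E11.5 library and Kcnn2 exceeded Kcnn1 in every PN library, as FPKM, which is scaled by transcript length. From E11.5 to PN, Kcnn1 differed by -2.01 ± 0.43 (limma adjusted p = 0.00379) and Kcnn2 by 2.28 ± 0.32 (limma adjusted p = 0.000267) in log2(FPKM + 1). Kcnn3 (SK3) stayed below 1 FPKM in every stage library.

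Kcnma1, the pore of the large-conductance (BK) channel, had 1.01, 0.00439 and 0.672 FPKM at E11.5, 2.58, 2.83 and 1.97 at E15.5, and 5.87, 6.49 and 10.1 at PN. Stages did not overlap, and it rose in both intervals, by 1.20 ± 0.37 and 1.27 ± 0.37 in log2(FPKM + 1) (limma adjusted p = 0.0297 and 0.0307). The first call was lost without E11.5 library b or any 1 E15.5 library (limma adjusted p up to 0.106), the second without any 1 library of E15.5 or PN (limma adjusted p up to 0.205 over all alternatives), while the difference from E11.5 to PN passed under all 15 alternatives. Its beta subunit Kcnmb4, abundant from the start, had 18.2, 7.27 and 19.0 FPKM at E11.5, 12.2, 24.8 and 13.1 at E15.5, and 31.7, 34.0 and 8.48 at PN, its stages overlapped, and it passed in none of the comparisons. Kcnmb2, an inactivating beta subunit, was listed at 0 at E11.5 and had 0.377, 1.05 and 2.64 FPKM at E15.5 and 0.915, 0.887 and 2.63 at PN; it was called from E11.5 to E15.5 close to the threshold (limma adjusted p = 0.0488). Of the 12 alternatives that tested it 3 kept that call; it was lost without any 1 E11.5 library or PN library a or b (limma adjusted p up to 0.0978, and 0.0563 without PN library b). Kcnt1 (Slack), a sodium-activated channel, had 0.630, 0.0888 and 0 FPKM at E11.5, 0.657, 0.832 and 0.449 at E15.5, and 4.36, 1.98 and 4.84 at PN. Its PN libraries lay above all others, by 1.47 ± 0.35 in log2(FPKM + 1) from E15.5, given with no p because the gene was tested through those libraries only. Kcnu1, described mainly as a sperm channel, was listed at 1.54 to 3.88 FPKM at E11.5, 4.78 to 5.52 at E15.5 and 3.18 to 7.53 at PN, and passed in none of the comparisons.

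Kcnq1ot1, a noncoding RNA transcribed antisense within Kcnq1, is the single member that encodes no channel protein. It had 3.98, 1.58 and 1.94 FPKM at E11.5, 0.560, 0.496 and 0.566 at E15.5, and 1.497, 1.47 and 3.44 at PN, and fell by 1.12 to E15.5 on the log2(FPKM + 1) scale (limma adjusted p = 0.0368). That call was lost without E11.5 library a or any 1 E15.5 library (limma adjusted p up to 0.113). No source used here says whether counting used strand, so its reads and those of Kcnq1 cannot be told apart.

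Subtracting the change up to E15.5 from the change after it gave a further contrast of the same fit, in which the E15.5 libraries enter both intervals. It passed for 10 channel genes, against 22.6% of all tested genes, 9.62% higher and 13.0% lower. The later interval was the higher for 7: Kcnh2, Kcnh4, Kcne1l, Kcnq1ot1, Kcnc1, Kcnc4 and Kcnk4, the last pair tested through PN libraries only. For Kcnip3, Kcnk2 and Kcnk10 it was the lower, at -2.36 ± 0.55, -2.76 ± 0.81 and -2.47 ± 0.66 in log2(FPKM + 1) (limma adjusted p = 0.0104, 0.0280 and 0.0184). Kcnh2 had the highest value, 4.24 ± 0.71 (limma adjusted p = 0.00183), and was the only one of the 10 to pass under all 15 alternatives. Without E15.5 library a, b or c the count was 4, 4 and 3, and without PN library b it was 6, Kcnc1 and Kcnk2 no longer passing and Kcnc4 and Kcnk4 not being tested.

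The number of rises from E15.5 to PN depended on which libraries entered the fit. Leaving out 1 library of either stage reduced the 8 calls to 5, 4 and 4 (E15.5 libraries a, b and c) and to 1, 2 and 2 (PN libraries a, b and c). Without PN library b, the library with the high microglia and blood markers, Kcnk1 still passed, Kcnj6 was added, and Kcnc1, Kcnip1, Kcnip4 and Kcnma1 kept differences of 1.36, 1.94, 1.96 and 1.34 with limma adjusted p between 0.0578 and 0.0765. Kcnc4, Kcnk4 and Kcnt1 then no longer met the filter; the other PN libraries held 3.397 to 6.28, 3.73 to 8.46 and 4.36 to 4.84 FPKM of them. From E11.5 to PN, 13 to 18 genes passed when a library was left out, against 18 with all libraries.

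Related genes from lists chosen with earlier results of these data known were counted in the same fit. Of 16 partner proteins of these channels 12 were tested; by E15.5 5 had risen and 1 had fallen, 3 rose from E15.5 to PN, and 7 rose over the whole span, against 17.4%, 10.6% and 17.4% of all tested genes called higher. Dpp10, an extracellular partner of Kv4 pores, had 0.0202, 0.0200 and 0.0358 FPKM at E11.5, 6.99, 4.25 and 6.92 at E15.5, and 10.4, 13.1 and 18.7 at PN. It rose in both intervals, by 2.76 and 1.08 in log2(FPKM + 1). Of 23 receptors and G proteins that act on inward rectifiers 18 were tested; by E15.5 4 had risen and 2 had fallen, by PN a further 2 had risen and 3 had fallen, and 10 rose and 2 fell over the whole span. Of all 11741 tested genes 1348, 1121 and 1177 fell in the 3 comparisons. Gabbr2, a subunit of the GABA-B receptor, rose by 2.604 ± 0.36 from E11.5 to PN, whereas the autoreceptor Htr1a differed by 0.06 ± 0.37 (limma adjusted p = 0.920).

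Loss of Pet-1 at E15.5 was compared through the authors' deposited tables, which give 1 FPKM per group and a q-value, with no library values. In the authors' deposited tables Fev, the targeted gene, was at 31.1 FPKM in wild type and 0.422 in Pet-1-/- with Clontech, and at 34.9 and 0.308 with NuGEN. With Clontech, 0 of 38 channel genes with at least 1 FPKM in a group had q below 0.05 and a 1.5-fold difference, against 2.81% of all 10939 genes (0.960% higher, 1.85% lower) in the authors' deposited table. At an unadjusted p below 0.05 and at least 1.5-fold, 7 of the 38 differed, 6 of them higher in the knockout, against 12.3% of all genes; without the fold limit it was 8, Kcnip3 being the other, against 16.9%. With NuGEN, 5 of 41 passed in the authors' deposited table, 4 higher and 1 lower, against 12.7% of all 11019 genes (8.18% higher, 4.56% lower), a share near the background. The count at an unadjusted p below 0.05 and at least 1.5-fold was 9 there, against 21.4%.

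The 4 genes higher in Pet-1-/- with NuGEN were Kcnip1, Kcnma1, Kcnt1 and Kcnh4. In the authors' deposited NuGEN table the KChIP gene Kcnip1 went from 5.43 to 11.9 FPKM (q = 0.00206), and the BK pore Kcnma1 from 2.62 to 5.38 FPKM (q = 0.00473). Kcnt1 went from 0.746 to 1.74 FPKM (q = 0.00921) and Kcnh4 from 2.16 to 4.06 FPKM (q = 0.0309) in the authors' deposited NuGEN table. In these 4 the knockout value was 1.88 to 2.33 times that of wild type. The inward rectifier Kcnj16 (Kir5.1) was the lower one, at 1.48 FPKM in wild type and 0.609 in the knockout (q = 0.0252, authors' deposited NuGEN table). In the authors' deposited Clontech table, which comes from other libraries, the same 5 genes differed in the same direction with unadjusted p below 0.05, and none passed. Kcnip1 was at 5.66 and 10.3 FPKM there (q = 0.0885), Kcnma1 at 2.65 and 4.17 (q = 0.214), Kcnt1 at 0.604 and 1.32 (q = 0.194), and Kcnh4 at 1.501 and 3.05 FPKM (q = 0.160), per the authors' deposited Clontech table. Kcnj16 was at 2.06 and 0.712 FPKM (q = 0.0828) in the authors' deposited Clontech table. So these 5 were all of the NuGEN calls and 5 of the 7 Clontech genes with unadjusted p below 0.05 and at least 1.5-fold, the others being Kcna3 and Kcnc4. What share of all genes called with NuGEN did the same with Clontech was not counted.

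The summed astrocyte markers were, like Kcnj16, lower in the knockout. In the authors' deposited tables the sum was 102 FPKM in wild type and 19.8 in Pet-1-/- with Clontech, and 24.3 and 19.7 with NuGEN. Single markers went both ways. In the authors' deposited Clontech table Aldoc went from 30.4 to 3.64 FPKM and Slc1a2 from 2.51 to 3.26. In the NuGEN table Sparcl1 went from 6.75 to 4.64 FPKM, S100b from 0.124 to 0.708 and Aqp4 from 0.0747 to 0.270. In the wild-type E15.5 libraries a, b and c the astrocyte sum was 50.9, 147 and 121 FPKM, beside 0.247, 2.62 and 2.21 FPKM of Kcnj16. At PN the order differed, with sums of 120, 257 and 156 FPKM beside 1.84, 0.210 and 1.57 FPKM of Kcnj16. The part of astrocyte RNA in the Kcnj16 difference was not tested. Serotonin neuron markers summed to 549 FPKM in wild type and 259 in Pet-1-/- with Clontech, and to 1072 and 436 with NuGEN, in the authors' deposited tables. None of the 5 genes had a Myc-Pet-1 peak by the rule above.

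**Figure D4:**
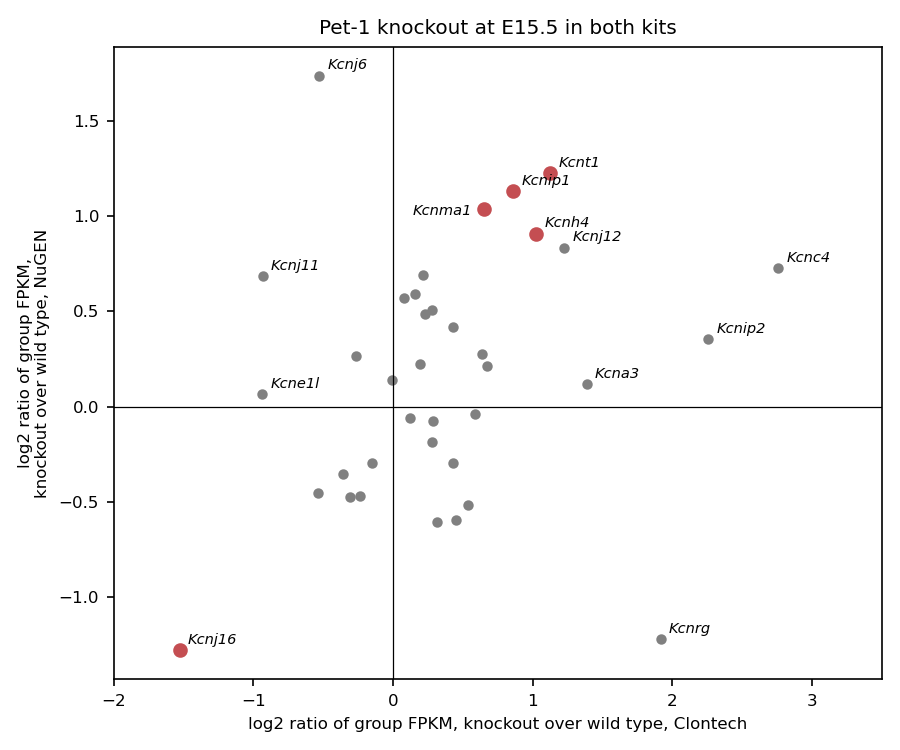
Log2 ratio of group FPKM, Pet-1-/- over wild type at E15.5, with the Clontech kit (horizontal) and the NuGEN kit (vertical), for the 37 channel genes with at least 1 FPKM in a group of each of the authors' deposited tables; red points passed with NuGEN. The 5 red points lie on the same side of 0 in both kits, and Kcnj6 and Kcnrg on opposite sides.

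Across the 37 channel genes measured at 1 FPKM by both kits, 23 (62.2%) had the same sign of change, against 57.0% of 10496 genes, and Pearson's r across these genes was 0.22 (Spearman's rho 0.26), against r = 0.30 across all genes. Genes are not independent replicates, and this is a description. The authors' deposited tables gave a higher group value in the knockout for 26 of 38 channel genes with Clontech (68.4%, against 47.3% of all genes) and for 26 of 41 with NuGEN (63.4%, against 57.3%). The median log2 ratio was 0.28 and 0.27, against -0.02 and 0.09 over all genes. Kcnj6 went from 1.43 to 0.990 FPKM with Clontech (q = 0.735) and from 0.403 to 1.34 FPKM with NuGEN (q = 0.0653) in the authors' deposited tables, and the difference between kits was not tested. Kcnc4, highest at PN in the stage series, was at 0.251 FPKM in wild type and 1.69 in Pet-1-/- in the authors' deposited Clontech table (q = 0.0915), and at 0.703 and 1.16 with NuGEN (q = 0.294).

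Of the 4 genes whose promoter windows are printed above, none passed in either of the authors' deposited tables. Kcna3 was at 1.26 FPKM in wild type and 3.29 in Pet-1-/- with Clontech (q = 0.189), and at 1.27 and 1.38 with NuGEN (q = 0.907), per the authors' deposited tables. Kcnab2 was at 1.14 and 1.56 FPKM with Clontech (q = 0.714) and at 3.06 and 2.03 with NuGEN (q = 0.218), and Kcnmb4 at 13.5 and 16.4 (q = 0.753) and at 9.22 and 13.1 (q = 0.306) in the authors' deposited tables. Kcnc1, with the strongest peak, was at 2.06 and 2.77 FPKM with Clontech (q = 0.526) and at 2.25 and 3.01 with NuGEN (q = 0.356) in the authors' deposited tables. Among related genes, the authors' deposited tables called the axonal organiser Cntnap2 higher with Clontech, from 4.13 to 9.34 FPKM (q = 0.0256), and Htr1a lower with NuGEN, from 5.70 to 1.02 FPKM (q = 0.00206). Htr1a was at 1.07 and 0.924 FPKM with Clontech (q = 0.893) in the authors' deposited table.

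Genes left without a call had low or uneven levels. The 10 described genes that were not tested were Kcna4, Kcna5, Kcnc2, Kcng2, Kcnj12, Kcnj9, Kcnk15, Kcnq3, Kcnrg and Kcns1. Kcnk15 was listed at 3.41 FPKM in E11.5 library b and at 0 in the other 8 libraries, and Kcnq3, a voltage-gated pore subunit, was at 4.59 FPKM in PN library c and at most 0.537 elsewhere. Kcna5 was at 3.48, 0.910 and 1.22 FPKM at PN and at most 0.276 before. The 14 tested genes with no call in any stage comparison or in the difference between intervals included Kcnmb4 and Kcnu1 among the abundant ones, and Kcna3, Kcnab2 and Kcnd3 among those with a peak at the start.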

How the data were processed

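The authors deposited FPKM for each stage library, and for each knockout group FPKM with p-values and q-values, in Cuffdiff's layout (per the file headers). TopHat2, Cufflinks, BWA and MACS 1.4.2 are named in the submitters' processing notes. Peaks on mm10 carry a score per peak as deposited by the authors. In the stage matrix, 3 columns matched no sample and stayed out, as did 14 genes with a failed estimate. No kit is named for the E15.5 columns, whose means lay close to the Clontech wild-type group (median ratio 1.01, 5% to 95% of 6038 genes between 0.874 and 1.19). Stages were compared with limma (3.58.1, R 4.3.3) on log2(FPKM + 1), which understates changes of low genes, using a mean-variance trend and 6 residual degrees of freedom over 9 libraries, two-sided. This step was tested on simulated data. Knockout calls took the deposited q-value, at least 1.5-fold and 1 FPKM in a group. Peaks were matched to RefSeq GRCm38.p6 gene spans; 70 genes had a promoter window, and 25 had no strand, so their spans alone were searched. Values of every library are given for genes called anywhere or among the 10 highest means; a few such genes are included in the counts and sums but not reported singly here. The members and lists were chosen with earlier results of these data known. Alternatives varied the pseudocount, filter, scaling, trend, fold limit, libraries and source of the q-value.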

Additional observations from a re-analysis of the deposited data

How the results depend on the processing

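No paired analysis was possible because the columns of the stage matrix carry no replicate numbers and the knockout tables give groups only, so the planned replicate block was not run; nor was a deposited q-value for E11.5 to PN. Stage counts of 17 (E11.5 to E15.5) and 18 (E11.5 to PN) stayed within 1.5 times under all alternatives, ranging from 12 to 19 and 13 to 18 with a library left out. The 8 calls from E15.5 to PN became 4 with a pseudocount of 0.1, 15 by the q-value of the authors' deposited table (14 higher, 1 lower, 7 shared), and 1 to 11 with a library left out. The 10 calls on the difference between intervals became 3 to 12 with a library left out. Of the calls, 11 of 17, 0 of 8, 12 of 18 and 1 of 10 were kept in all 15 alternatives. Direction reversed for none of the named genes in these alternatives. The q-values of the authors' deposited stage table were not among those 15. From E11.5 to E15.5 they did not call Kcnd2 (q = 0.299), Kcnk1 (q = 0.176), Kcnn2 (q = 0.239), Kcnv1 (q = 0.343) or Kcnab1 (q = 0.393). The authors' deposited table called the rest of the 17, and also Kcnj16 (q = 0.0448). Knockout calls with Clontech went from 0 to 7 at unadjusted p with the fold limit kept, and with NuGEN from 5 to 9 likewise and to 2 at a floor of 5 FPKM. Genes with a peak went from 17 to 10 within 5 kb of the start (of 70 with a known start). They went to 5 of 95 with the higher-scoring peaks. Of all matched genes 22.2% had a peak within 5 kb of the start, so the channel share was lower. With the higher-scoring peaks the channel share was also below that of all matched genes. Depth is unknown, so low FPKM values carry no counting error here.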

Other observations

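The q-values of the authors' deposited stage table, taken with the library means, called 8 channel genes from E15.5 to PN that the limma test on libraries did not: Kcna6, Kcnd2, Kcnd3, Kcne1l, Kcnip3, Kcnj9, Kcnq1ot1 and Kcnq3. Kcnj9 and Kcnq3 were below the filter of the limma test. The mean FPKM of Kcnd3, the Kv4.3 pore with 2 Myc-Pet-1 peaks near its start, was 0.972 ± 0.257 at E15.5 and 3.24 ± 0.995 at PN (SD, n = 3; limma adjusted p = 0.0686). The q-value for Kcnd3 in the authors' deposited table was 0.000724. Kcna6, a Kv1 pore, had 1.02 ± 0.434 and 3.36 ± 1.59 FPKM (SD, n = 3; limma adjusted p = 0.148), with a q-value of 0.00765 in the authors' deposited table. The 1 gene lower at PN was Kcnip3, with 17.3 ± 3.28 and 9.04 ± 1.51 FPKM (SD, n = 3) and a q-value of 0.00823 in the authors' deposited table. For Kcnq3 the q-value in the authors' deposited table was 0.00662, while PN library c held 4.59 FPKM of it against 0.0986 and 0.537 in libraries a and b.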
